A study of Homo sapiens with 8 samples.

Results

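NF-κB is a family of transcription factors built as dimers of 5 subunits, and the values below are those of the 5 genes that encode them: NFKB1, NFKB2, REL, RELA and RELB. The members were chosen by name, as all probe sets that the platform annotation assigns to one of these symbols. This gave 8 probe sets of 5 genes, out of 49386 probe sets and 18239 genes with a symbol of their own. NFKB1, NFKB2 and RELB had 1 probe set each, REL had 2 and RELA had 3. The study used NS-SV-AC, an established human cell line that was immortalised from acinar (fluid-secreting) cells of a salivary gland. Cultures received TNF-α at 20 ng/ml or bovine serum albumin (BSA) as the control, for 2, 6, 12 or 24 h. Each of these 8 combinations was hybridised to 1 Affymetrix GeneAtlas array, which gave 4 arrays for each treatment without replicates of a time. All arrays are of the same line, and it is the only cell model here.

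All subunits share a Rel homology domain, which binds DNA and joins the dimer. NFKB1 and NFKB2 encode the precursors p105 and p100, which are cut to the short subunits p50 and p52, while RELA, RELB and REL (c-Rel) carry the domain that activates transcription. In resting cells the dimers are held in the cytoplasm by IκB proteins. TNF-α, acting through its receptor, activates the IκB kinase complex, which marks IκB for destruction within minutes and frees dimers that are already made. The slower non-canonical branch cuts p100 and frees dimers of RELB with p52. The arrays read mRNA, so they show neither the cutting of the precursors nor the movement of subunits to the nucleus.

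Values are log2 RMA values, and differences are TNF-α minus BSA, so that a difference of 1 is a 2-fold difference. The TNF-α array at 24 h stood apart from the other 7 arrays. Its mean correlation with the others across probe sets was 0.904, against 0.964 to 0.975 for the rest. The 3′ end of GAPDH read 6.28 above its 5′ end on this array and 0.20 to 0.37 above on the others, whereas ACTB had a gap of 6.88 there and of 2.59 to 3.47 elsewhere. The tests below were therefore also run without the 24 h pair. The part that the wide 3′ to 5′ gap has in the 24 h values was not tested. The acinar label was checked against marker genes. Of 10 measured acinar markers, 9 had a mean below the median of all genes and 6 below the lower quartile. AQP5, the water channel of acinar cells, had a mean of 4.01 in BSA and MUC7, a salivary mucin, 2.84. Of 4 general epithelial markers, the keratins KRT8 (8.15) and KRT18 (10.1) were above the median of all genes, and the adhesion genes CDH1 (3.35) and EPCAM (2.89) were under the lower quartile. All 4 measured ductal and basal markers were below the median. All 5 measured leukocyte markers were below the median of all genes, with a summed log2 level of 16.8 to 17.6 in BSA and 17.5 to 18.3 in TNF-α. Their median difference was −0.0034 from 2 to 12 h and 0.36 at 24 h. Of the 4 fibroblast markers, COL3A1 (9.44) and DCN (7.03) were above the median of all genes, and COL1A1 (3.81) and PDGFRA (4.38) were below it. Their summed level was 24.1 to 25.1 in BSA and 24.2 to 27.2 in TNF-α. The median difference of these 4 was −0.04 from 2 to 12 h and 0.31 at 24 h. The part of these markers in the results was not tested, and in bulk RNA fewer cells of a type and less RNA per cell cannot be told apart.

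The sequence before the transcription start of several subunit genes is shown here because the family includes genes known to be targets of NF-κB. RefSeq windows of 300 bases (250 before and 50 after an annotated start, build GRCh38.p14) were matched for 4 of the 5 members, NFKB1, NFKB2, REL and RELA, which have 8 annotated starts between them. The windows were searched on both strands for the κB consensus, the 10-base pattern to which NF-κB dimers are known to bind. Capitals mark the matches, and overlapping matches run together. The windows shown are the 4 that held a match and, for contrast, 1 of RELA.
NFKB1, start 1, chr4:102501109-102501408, plus strand: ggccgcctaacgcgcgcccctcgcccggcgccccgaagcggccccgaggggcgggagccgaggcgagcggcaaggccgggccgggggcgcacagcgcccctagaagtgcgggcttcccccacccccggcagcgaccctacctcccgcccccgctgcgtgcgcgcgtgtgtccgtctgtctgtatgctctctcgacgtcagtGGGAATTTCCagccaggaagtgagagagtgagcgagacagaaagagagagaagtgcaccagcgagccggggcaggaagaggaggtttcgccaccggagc
REL, start 1, chr2:60881324-60881623, plus strand: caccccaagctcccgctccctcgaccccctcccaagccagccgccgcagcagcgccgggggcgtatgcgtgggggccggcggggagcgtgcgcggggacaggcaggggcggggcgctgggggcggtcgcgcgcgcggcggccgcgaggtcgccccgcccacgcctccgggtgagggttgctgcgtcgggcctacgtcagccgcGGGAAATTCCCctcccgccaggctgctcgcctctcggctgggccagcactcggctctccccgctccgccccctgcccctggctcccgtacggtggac
NFKB2, start 2, chr10:102394328-102394627, plus strand: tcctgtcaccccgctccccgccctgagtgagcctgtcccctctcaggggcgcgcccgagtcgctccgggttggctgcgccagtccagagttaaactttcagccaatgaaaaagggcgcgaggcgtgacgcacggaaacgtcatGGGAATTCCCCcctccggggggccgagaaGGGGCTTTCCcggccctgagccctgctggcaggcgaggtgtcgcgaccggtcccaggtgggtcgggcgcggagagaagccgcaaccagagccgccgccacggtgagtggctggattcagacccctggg
NFKB2, start 3, chr10:102395455-102395754, plus strand: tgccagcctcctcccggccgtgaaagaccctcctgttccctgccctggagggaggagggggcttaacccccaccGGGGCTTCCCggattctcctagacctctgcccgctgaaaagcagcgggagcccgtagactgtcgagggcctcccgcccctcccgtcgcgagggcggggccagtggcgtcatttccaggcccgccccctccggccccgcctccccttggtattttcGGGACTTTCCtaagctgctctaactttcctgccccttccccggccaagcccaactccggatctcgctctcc
RELA, start 2, chr11:65662867-65663166, minus strand: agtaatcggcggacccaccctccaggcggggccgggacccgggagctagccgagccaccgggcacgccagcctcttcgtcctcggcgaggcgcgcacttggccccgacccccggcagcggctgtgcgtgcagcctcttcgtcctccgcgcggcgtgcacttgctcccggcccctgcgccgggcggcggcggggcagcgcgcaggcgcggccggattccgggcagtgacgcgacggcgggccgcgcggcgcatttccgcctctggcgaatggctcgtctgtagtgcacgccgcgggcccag

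The pattern was found in 4 of the 8 windows of members. Over all 35116 RefSeq windows of the same length, 11.3% held it. In NFKB1 the match, GGGAATTTCC, began 49 bases before the start. In REL the pattern was met on both strands in overlapping positions, beginning 47 and 46 bases before the start, and the match on the other strand also reads GGGAATTTCC. NFKB2 had 2 places with a match before start 2, beginning 107 and 78 bases upstream. The first matched on both strands and overlapped a further match on the other strand, beginning 106 bases upstream. Before start 3 NFKB2 had 2 places, beginning 176 and 21 bases upstream, of which the first matched on both strands. The 2 windows of RELA, the window of start 2 of NFKB1 and that of start 1 of NFKB2 held none. A stricter spelling (GGGA, any base, TTTCC) was met in 3 windows of members and in 0.558% of all windows. A looser one (GGG, any 5 bases, CC) was met in all 8 and in 58.7%. These matches describe letters and not binding, and a window without one says only that the letters are not there.

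**Figure D1:**
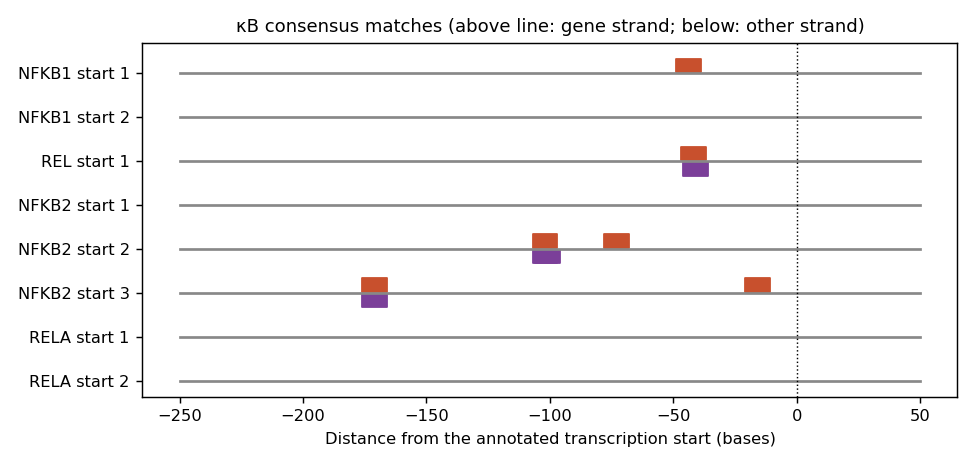
Positions of matches to the κB consensus in 8 RefSeq windows of NFKB1, REL, NFKB2 and RELA, as distance in bases from the annotated transcription start (dotted line at 0). Boxes above a line are matches on the gene's strand and boxes below it are matches on the other strand; NFKB1 start 1, REL start 1 and NFKB2 starts 2 and 3 have boxes, and the 2 RELA windows have none.

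Which subunit genes did TNF-α change? From 2 to 12 h NFKB1 and RELB rose, by 2.32 ± 0.18 and 2.51 ± 0.17 (SE, 3 pairs of arrays), or 5.00-fold and 5.71-fold. REL was 1.10 ± 0.35 higher, NFKB2 0.45 ± 0.08 and RELA 0.30 ± 0.09, and these 3 did not pass. The REL estimate depended on the times used, with 0.58 without the 2 h pair and 1.56 without the 12 h pair. Over all 4 times all 5 estimates were positive and none passed: RELB was 2.23 ± 0.26 higher (SE, 4 pairs), NFKB1 2.00 ± 0.30, NFKB2 0.59 ± 0.13, REL 0.53 ± 0.53 and RELA 0.15 ± 0.14. The word rose is used here only of genes whose adjusted p from limma was under 0.05.

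The test was limma's, with treatment and time as factors, so that each TNF-α array was set against the BSA array of its own time. Adjusted p-values (Benjamini-Hochberg over all genes) from 2 to 12 h were 0.0125 for RELB, 0.0171 for NFKB1, 0.150 for NFKB2, 0.262 for RELA and 0.276 for REL. Thus 2 of 5 subunit genes rose and 0 fell, where 0.318% of all genes rose and 0.0493% fell. Fitted by probe set, 2 of 8 rose and 0 fell, where 0.186% of all probe sets rose and 0.0309% fell. Over the 4 times 0 of 5 genes and 0 of 8 probe sets passed by limma, where 0.0164% of all genes and 0.00442% of all probe sets rose; unadjusted p was under 0.05 for RELB (0.000299), NFKB1 (0.000913) and NFKB2 (0.00572), and 1369 genes in all were below that mark. With array quality weights, which gave the 24 h pair a weight of 0.176 against 1.53 to 2.00 for the other pairs, RELB (2.46 higher, adjusted p = 0.00942) and NFKB1 (2.32, adjusted p = 0.0122) passed over the 4 times too. Both calls from 2 to 12 h were lost without the 6 h pair, though the estimates stayed near those above. NFKB1 was then 2.14 higher (adjusted p = 0.192 by limma, unadjusted 0.00034) and RELB 2.44 (0.204, unadjusted 0.00037). That fit had 1 residual degree of freedom, and 0 of all 18239 genes passed by limma, with 1202 at an unadjusted p under 0.05. The calls of NFKB1 and RELB were also lost in limma when times were not paired (adjusted p = 0.116 and 0.0588). With a single array for each treatment and time, the p-values rest on how much the difference varied from time to time, which mixes noise with true changes over time.

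**Figure D2:**
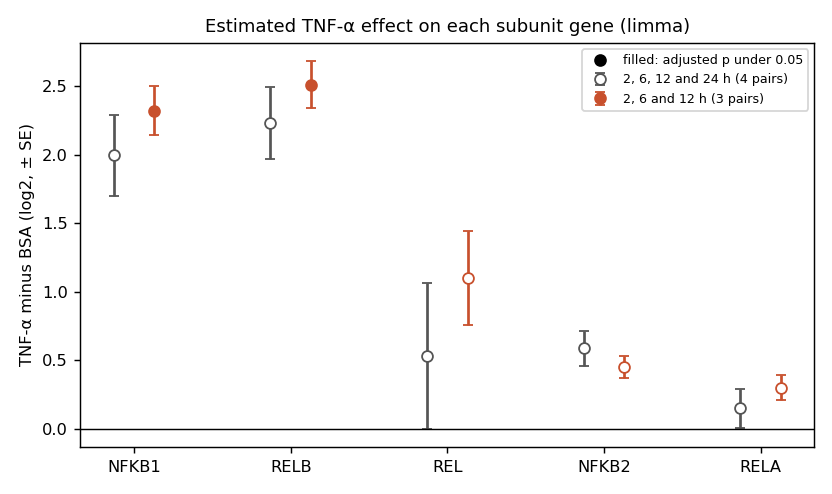
Estimated difference TNF-α minus BSA (log2, y axis) for each subunit gene, with bars of 1 SE, over 4 pairs of arrays (grey) and over the 3 pairs of 2, 6 and 12 h (red). Filled points have an adjusted p under 0.05 by limma: NFKB1 at 2.32 and RELB at 2.51 from 2 to 12 h, and none over the 4 times.

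NFKB1 encodes p105 and p50, the partner of RELA in the most common NF-κB dimer. Its probe set (11717542_a_at) read 6.16, 6.76, 6.67 and 7.09 in BSA at 2, 6, 12 and 24 h. In TNF-α it read 8.67, 9.45, 8.44 and 8.10. All 4 TNF-α arrays were above all 4 BSA arrays, with a gap of 1.02 between the lowest TNF-α and the highest BSA array, both at 24 h. The differences at 2, 6, 12 and 24 h were 2.51, 2.69, 1.77 and 1.02, so that the 6 h arrays were 6.46-fold apart and the 24 h arrays 2.02-fold. The narrowing came from both sides, since BSA at 24 h was 0.92 above BSA at 2 h and TNF-α at 24 h was 0.57 below TNF-α at 2 h (a change of −0.57). The TNF-α value at 24 h is from the array with the wide 3′ to 5′ gap. The change of the NFKB1 difference with time, tested below, did not pass. Among the differences of all 18239 genes, that of NFKB1 was the 27th highest at 2 h and number 1070 at 24 h.

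RELB, the subunit of the non-canonical branch that pairs chiefly with p52, was read by 1 probe set (11722141_at). In BSA it was flat, with 5.14, 5.41, 5.04 and 5.17 at 2, 6, 12 and 24 h, a range of 0.37. In TNF-α it read 7.14, 8.06, 7.93 and 6.56. The groups did not overlap, and the lowest TNF-α array, at 24 h, was 1.15 above the highest BSA array. Its differences in the same order were 2.00, 2.65, 2.89 and 1.39. RELB was the subunit with the highest difference at 12 h, when its arrays were 7.40-fold apart and its difference was the 41st highest of all genes. At 2 h, NFKB1 and REL had higher differences than RELB, but with 1 array per treatment and time the order of the subunits at a time was not tested.

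NFKB2 encodes p100 and p52. Its probe set (11725153_a_at) was dim, under the array's median of all probe sets on 4 of 8 arrays. It read 4.26, 4.20, 4.07 and 3.78 in BSA and 4.58, 4.74, 4.56 and 4.77 in TNF-α at 2, 6, 12 and 24 h. The TNF-α values were nearly level over time, with a range of 0.22, while the BSA values had a range of 0.48 and were lowest at 24 h. All TNF-α arrays were above all BSA arrays, by a gap of 0.30. The differences were 0.32, 0.54, 0.48 and 0.99, and 0 of the 4 reached 2-fold as deposited; at 24 h the difference was 1.05 when the arrays were quantile normalised again. Without the 2 h pair the 2 remaining pairs of the early fit, 6 and 12 h, gave 0.51 with an adjusted p of 0.0311 by limma, in a fit with 1 residual degree of freedom in which 1094 genes passed. Of genes in general, 3.58% had 4 TNF-α arrays all above the 4 BSA arrays, and of the subunits 3 of 5 did: NFKB1, RELB and NFKB2. By probe set this was 3 of 8, against 3.10% of all. The same 3 genes were apart from 2 to 12 h, where 6.18% of genes were. Higher at each of the 4 times were the same 3 of 5 subunits, against 12.6% of all genes.

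REL encodes c-Rel, which is best known from lymphocytes. Its 2 probe sets gave the same picture at 2 h and parted later. The first (11736551_x_at) read 4.87, 3.95, 4.46 and 4.86 in BSA and 7.02, 4.92, 4.64 and 3.69 in TNF-α at 2, 6, 12 and 24 h. The second (11750334_a_at) read 4.53, 4.16, 4.07 and 4.47 in BSA and 6.48, 4.36, 4.40 and 4.39 in TNF-α. On both, the TNF-α array at 2 h was the highest of the 8 and the other arrays of the 2 treatments overlapped. The difference at 2 h was 2.14 on the first and 1.95 on the second probe set, or 4.42-fold and 3.86-fold. At 6 h it was 0.97 and 0.21, at 12 h 0.18 and 0.32, and at 24 h −1.17 and −0.08. Within TNF-α, the level at 6 h was below that at 2 h on both (changes of −2.10 and −2.12), while in BSA the same changes were −0.93 and −0.38. The suffix x marks a probe set in which some probes can match other transcripts, and whether they do was not tested. Only the first probe set showed the difference of −1.17 at 24 h, which is uncertain. It rests on the TNF-α array with the wide 3′ to 5′ gap, on which both probe sets were read at 24 h. There the first read 3.69, near that array's lower quartile of 3.51 over all probe sets. Without the 2 h pair the estimate for REL over the 3 remaining times was −0.0064.

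RELA encodes p65, the subunit of the canonical dimer that carries the activation domain and is present before stimulation. The brightest of its 3 probe sets (11745440_s_at) read 8.04, 8.46, 8.06 and 7.84 in BSA and 8.23, 8.68, 8.54 and 7.53 in TNF-α at 2, 6, 12 and 24 h. The treatments overlapped, with BSA at 6 h above TNF-α at 2 and 24 h. The differences were 0.19, 0.22, 0.49 and −0.31, none of them 2-fold. The other 2 probe sets were dim. They read 2.99 to 3.65 over the 8 arrays and were under the array's lower quartile on 3 (11718103_a_at) and 5 (11718104_x_at) of them. Their differences lay between −0.24 and 0.00 and between −0.28 and 0.22. With the mean of the 3 probe sets RELA was 0.09 higher from 2 to 12 h, with an adjusted p of 0.571 by limma. No probe set of RELA passed in any fit run here. The RELA values by gene, and the comparisons with RELA below, rest on the brightest probe set unless stated. It carries the suffix s, and whether its probes match other transcripts was not tested.

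**Figure D3:**
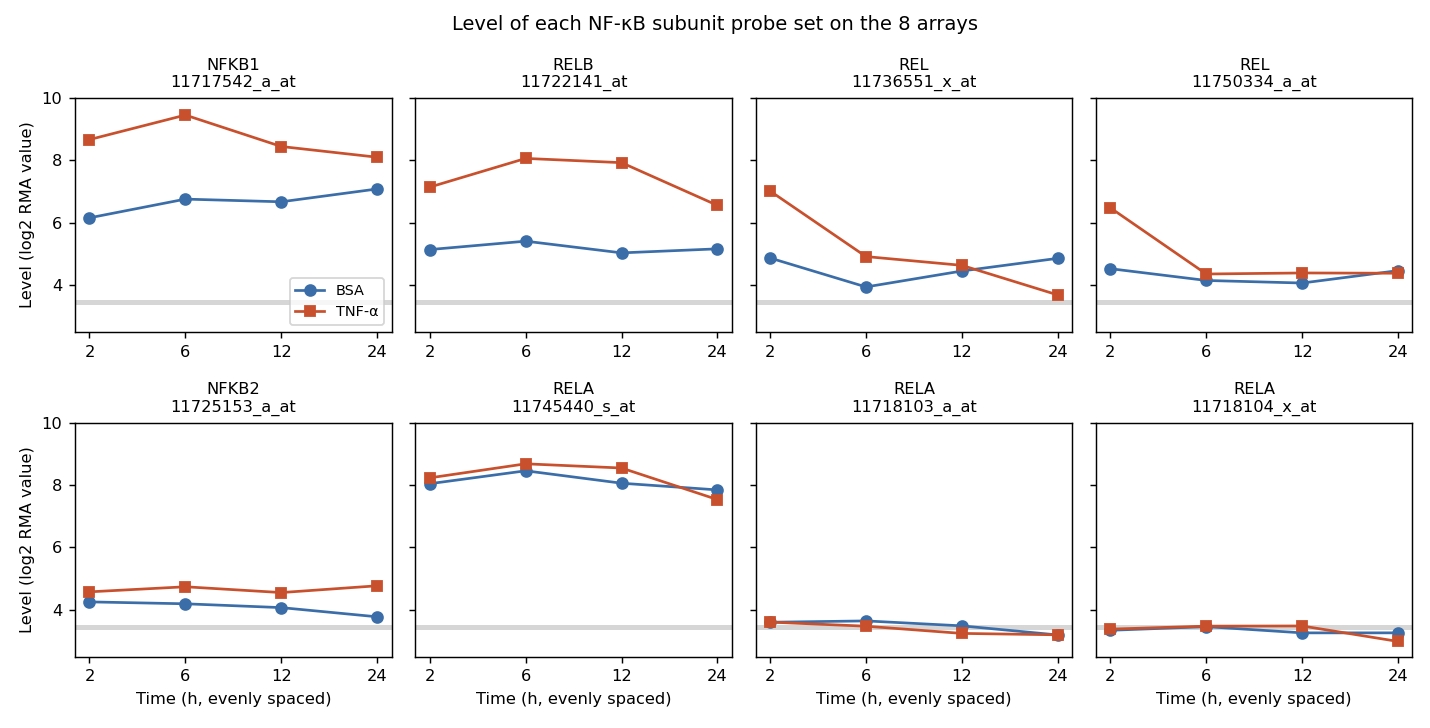
Level (log2 RMA value, y axis) of each of the 8 subunit probe sets at 2, 6, 12 and 24 h (x axis, evenly spaced) in BSA (blue circles) and TNF-α (red squares), 1 array per point; the grey band is the range of the arrays' lower quartiles over all probe sets, 3.37 to 3.51. NFKB1, RELB and NFKB2 in TNF-α lie above BSA at each time, REL is highest in TNF-α at 2 h on both probe sets, and RELA overlaps.

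Did the effect of TNF-α move in one direction with time? It was largest for REL, NFKB1 and RELB at 2, 6 and 12 h respectively, by the values above. Of the 5 subunits, 3 were at least 2-fold higher at 2 h (NFKB1, REL and RELB), where 0.493% of all genes were, and 0 were 2-fold lower, as 0.0439% were. At 6 h and at 12 h 2 were, NFKB1 and RELB, against 1.38% and 1.29% of all genes, and 0 were 2-fold lower, against 0.384% and 0.839%. At 24 h these 2 were again, against 6.10% of all genes, and REL was 2-fold lower, as were 6.67%; the median difference over all genes at 24 h was 0.20, against −0.02, −0.01 and 0.00 at 2, 6 and 12 h. Relative to that median the 24 h differences were 1.19 for RELB, 0.81 for NFKB1, 0.79 for NFKB2, −0.51 for RELA and −1.38 for REL. A limma model in which the treatment effect could change linearly with log2 of the hours gave a slope of −0.90 ± 0.21 (SE, 8 arrays) per doubling of the hours for REL, with an unadjusted p of 0.00617 and an adjusted p of 0.827. For NFKB1 the slope was −0.43 ± 0.20, for NFKB2 0.16 ± 0.07, for RELA −0.09 ± 0.20 and for RELB −0.09 ± 0.28. By this test 0 of 18239 genes passed, and 675 had an unadjusted p under 0.05. With hours on a linear scale 0 passed and 2903 had an unadjusted p under 0.05. Without the 24 h pair the slope of REL was −0.76 ± 0.29 (SE), with an unadjusted p of 0.0554 by limma. The slope of NFKB1 was then −0.25, of NFKB2 0.07, of RELB 0.35 and of RELA 0.11. None of the 5 passed.

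**Figure D4:**
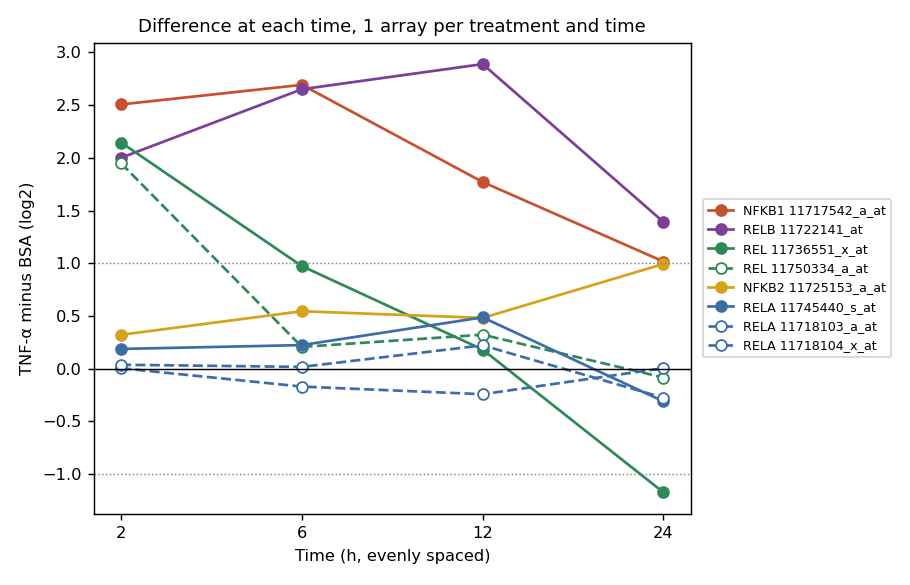
Difference TNF-α minus BSA (log2, y axis) at 2, 6, 12 and 24 h (x axis, evenly spaced) for the 8 subunit probe sets, from 1 array per treatment and time; solid lines are the brightest probe set of each gene, dashed lines the others, and dotted horizontal lines mark 2-fold. REL starts at 2.14 and ends at −1.17, NFKB1 is highest at 6 h with 2.69, RELB is highest at 12 h with 2.89, and NFKB2 stays between 0.32 and 0.99.

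Each subunit was also set against RELA within the same pairs of arrays, as the difference of the member minus that of RELA. The mean over 4 pairs was 2.09 ± 0.38 (SD, n = 4) for RELB and 1.85 ± 0.63 for NFKB1, and both were above 0 in 4 of 4 pairs. For NFKB2 it was 0.44 ± 0.59, above 0 in all pairs but that of 12 h, and for REL 0.38 ± 1.24, with values from 1.96 at 2 h to −0.86 at 24 h. Exact two-sided permutation tests that swapped labels within pairs gave p = 0.13 for RELB and NFKB1 (n = 4), the smallest p that 4 pairs allow. They gave exact p = 0.250 for NFKB2 and 0.750 for REL. Adjusted over these 4 comparisons, the exact p-values were 0.250, 0.250, 0.333 and 0.750. No such test could reach 0.05 with 4 pairs. When probe sets of a gene were averaged, NFKB2 minus RELA was 0.57 ± 0.43 and above 0 in 4 of 4 pairs (exact permutation p = 0.13, n = 4), and REL minus RELA at 12 h was 0.10 in place of −0.31, so these values depend on which RELA and REL probe sets are used.

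How did the rest of the pathway behave? Of 59 further pathway genes, 54 were measured and 5 were not analysed here. From 2 to 12 h 5 of the 54 rose and 0 fell by limma, where 0.318% of all genes rose and 0.0493% fell. Their median difference was 0.09, against −0.01 over all genes. Over the 4 times 2 of the 54 passed, where 0.0164% of all genes rose. The 6 genes of the IκB family, which encode cytoplasmic inhibitors and nuclear partners of the subunits, had a median difference of 2.32, against 1.10 for the 5 subunits. Of these, 3 rose. NFKBIA, the main inhibitor that is remade after each activation, rose by 3.23 ± 0.09 (SE, 3 pairs, adjusted p = 0.00119). NFKBIE, an inhibitor that holds RELA and REL, rose by 2.54 ± 0.13 (0.00476), and BCL3, a nuclear partner of p50 and p52, by 2.09 ± 0.11 (0.00519). The BCL3 value is from 1 of its 4 probe sets. This probe set carries the suffix x, so some of its probes can match other transcripts. The other 3 had means from 2 to 12 h between 0.01 and 0.07. The mean of all 4 was 0.56, which did not pass (adjusted p = 0.0641 by limma). The NFKBIA value is also from a probe set with the suffix x. A probe set of NFKBIA without this suffix had a mean difference of 3.35 from 2 to 12 h. The family median of 2.32 takes BCL3 at 2.09, so it depends on which BCL3 probe sets are used. The subunit median of 1.10 is the value of REL, which was 0.96 with the mean of its 2 probe sets. Without the 6 h pair none of the pathway genes passed; unpaired, the calls of BCL3 (0.163) and MAP3K14 (0.593) were lost. NFKBIZ, another nuclear IκB, was 2.86 ± 0.38 higher and did not pass (0.0723).

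Among 10 IκB kinases and their partners 1 rose. MAP3K14 encodes NIK, the kinase that starts the cutting of p100, and rose by 1.39 ± 0.12 (SE, 3 pairs, adjusted p = 0.0210 by limma). Its other, dimmer probe set had a mean difference of −0.03, and the mean of both, 0.68, did not pass (0.0761). The 3 genes of the IκB kinase complex itself did not pass: CHUK, the alpha kinase, was −0.30 ± 0.12, IKBKB, the beta kinase, 0.13 ± 0.08, and IKBKG, the scaffold NEMO, 0.05 ± 0.09. Of 9 measured receptor adaptors and ubiquitin ligases 0 passed by limma in either fit. TRAF1, an adaptor of TNF receptors, was 0.52 higher at 2 h, 2.45 at 6 h and 2.81 at 12 h, with means from 2 to 12 h of 1.20 and 0.59 on its other 2 probe sets. Of 7 deubiquitinases and partners, which switch the pathway off, TNFAIP3 (A20) rose by 7.22 ± 0.29 (adjusted p = 0.00301). This value is from a probe set with the suffix s, and whether its probes match other transcripts was not tested. The other TNFAIP3 probe set, without this suffix, had a mean difference of 4.64, and the mean of both was 5.93. On the probe set that stood for the gene the BSA values at 2, 6 and 12 h were 3.34, 3.32 and 3.26, each under its array's lower quartile of all probe sets, so the size of this difference rests on levels not shown to be above background. Of 8 genes of precursor processing and degradation, among them the ubiquitin ligase parts that mark p100, p105 and IκB, 0 passed, and their estimates ran from −0.28 (RNF123) to 0.23 (MAP3K8). Over the 4 times the genes that passed were NFKBIA (3.27) and TNFAIP3 (6.94). With the mean of probe sets TNFAIP3 was 5.46 higher and did not pass (adjusted p = 0.194 by limma). With the brightest probe sets, 0 of all genes passed when the 2 h, 6 h or 12 h pair was left out (1337, 514 and 624 at an unadjusted p under 0.05 by limma).

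**Figure D5:**
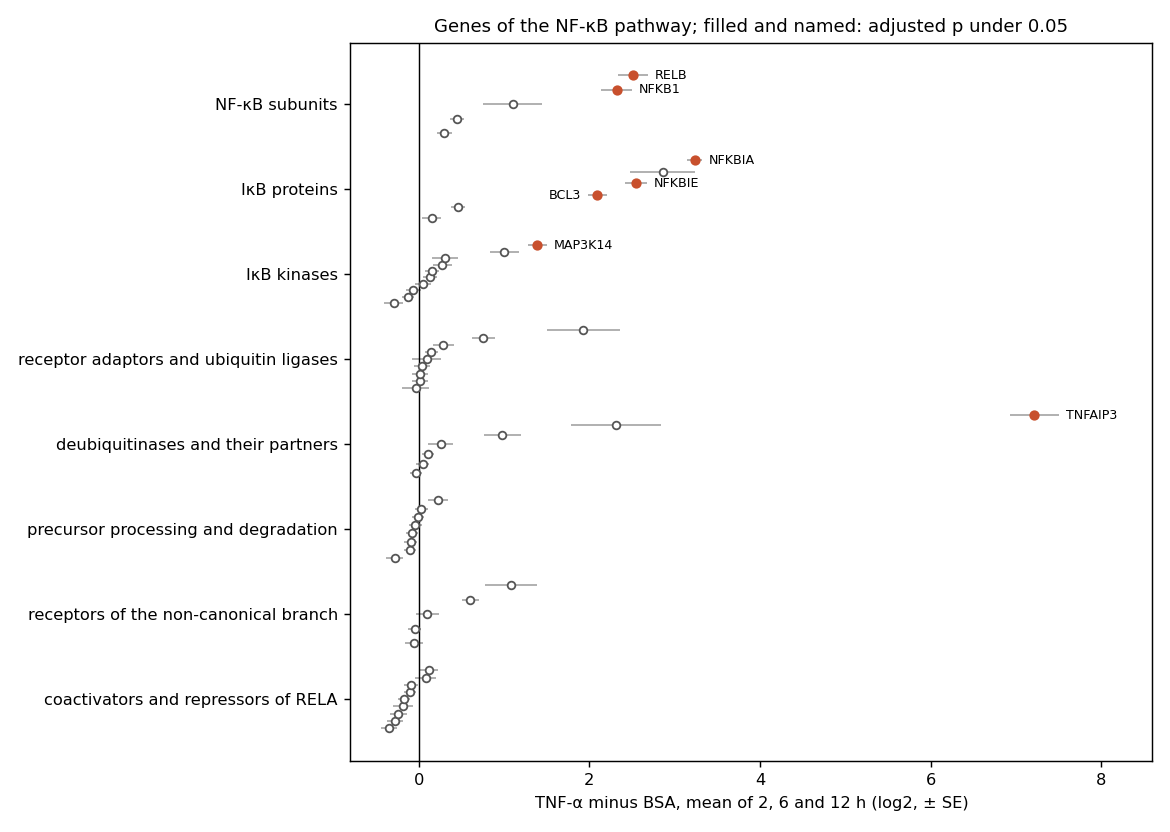
Difference TNF-α minus BSA from 2 to 12 h (log2, x axis, bars of 1 SE over 3 pairs of arrays) for the 5 subunits and 54 further genes of the pathway, grouped by role. Filled, named points have an adjusted p under 0.05 by limma: RELB, NFKB1, NFKBIA, NFKBIE, BCL3, MAP3K14 and TNFAIP3.

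Which genes had a pattern like that of a subunit? Likeness was Pearson's r of the log2 level over the 8 arrays, among 2713 genes above the median level and with an SD of at least 0.5, and it is given as a description, since all genes share the same 8 arrays. The arrays are of both treatments, so r also holds the difference between treatments where a member and a gene share one. Likeness within a treatment was not tested. RELB was most like NFKBIE (r = 0.991), the natural killer receptor gene KLRC1 (0.982), the adhesion molecule ICAM1 (0.980), GRAMD2B (0.977) and the co-stimulatory receptor TNFRSF9 (0.972). NFKB1 was most like NFKBIE (0.966), KLRC1 (0.954), the transcription factor ETS1 (0.949), RELB (0.944) and TNFAIP3 (0.944). NFKB2 was most like the methyltransferase NNMT (0.940), NFKBIA (0.924), the scavenger receptor OLR1 (0.916), FOSL1 (0.912) and the prostaglandin receptor PTGER4 (0.910). For REL the values were lower, led by MAFF (0.887), BHLHE40 (0.879), PLAU (0.877), ATF3 (0.876) and ABL2 (0.859). RELA was most like ALDH1B1 (0.975), ZNFX1 (0.967), CSRP1 (0.966), GUK1 (0.959) and ASB6 (0.955). Without the TNF-α array at 24 h, 3 of the 5 genes stayed among the nearest 5 for RELB, 2 each for NFKB1 and REL, and 1 each for NFKB2 and RELA.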

How the data were processed

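The values deposited by the authors are log2 values, 1 per probe set and array, made with RMA (background correction, quantile normalisation, probe set summary) per the submitters' processing notes; the sources used here do not give the software, its version or any filter. Arrays have no read depth, so their number limits the precision.

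Of 49386 probe sets, 45253 had 1 gene symbol, 1327 several, 2713 none and 93 were controls; the last 3 kinds were left out of the tests. Symbols come from the platform annotation, with 18180 Entrez identifiers matched to RefSeq and 62 not. The probe set with the highest mean stood for a gene, and each probe set was also fitted by itself. No low values were filtered out. Tests used limma 3.58.1 in R 4.3.3 (lmFit, eBayes, two-sided, Benjamini-Hochberg, threshold 0.05), over 8 arrays (3 residual degrees of freedom) and over the 6 arrays without 24 h (2). The fit was tested on simulated data. Time pairs the arrays by their labels. No label says that arrays came from separate cultures, so noise in the p-values may be technical. The members, gene lists and tests were chosen with earlier results of these data known. Named genes are the 5 members, list genes past the threshold, a fixed set of pathway genes and the 5 genes nearest to each member. NFKBIZ, RNF123, MAP3K8 and the genes of the closing section were named after their values were seen. Alternatives were the mean of probe sets, 2 scalings, a filter on dim genes, array weights, unpaired times and leaving out each time.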

Additional observations from a re-analysis of the deposited data

Results flagged for a closer look

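In TNF-α the 2 h array stood far from the other 3 arrays on the second REL probe set (11750334_a_at), at 6.48 against 4.36, 4.40 and 4.39 at 6, 12 and 24 h; its gap to the nearest value was 0.984 of the whole range, above Dixon's critical value for 4 values. The 4 arrays of a treatment are 4 times and not replicates. Of 16 sets of 4 arrays examined (8 probe sets in 2 treatments) 1 stood out, where chance gives about 1 in 20.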

How the results depend on the processing

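Settings that left a count of called members as it was are not listed. Over the 4 times, 0 of 5 genes and 0 of 8 probe sets of members passed; with array quality weights 2 and 2 did, and leaving out 1 time gave 0 to 2 for genes and 0 to 2 for probe sets. From 2 to 12 h, 2 genes and 2 probe sets passed; with unpaired times (no replicate block) 0 and 0 did, and leaving out 1 time gave 0 to 3 for each. Over all genes, 3 passed over the 4 times, against 1 with the mean of probe sets, 6 among brighter genes, 62 with weights, 5 unpaired and 0 to 67 leaving out 1 time; from 2 to 12 h 67 passed, against 36, 5 unpaired and 0 to 1094 leaving out 1 time. Over all probe sets these were 2, against 5 among brighter ones, 32 with weights and 0 to 98 leaving out 1 time, and 98, against 6 unpaired and 6 to 1624. Some estimates changed sign: over the 4 times the dim RELA probe set 11718104_x_at was −0.010 after centring, −0.051 after quantile normalisation again, and −0.012, −0.0055 and −0.074 without 2, 6 and 12 h. REL was 0.53 over the 4 times and −0.0064 without 2 h, as gene and as probe set 11736551_x_at. IKBKG was 0.043 with weights, 0.049 without 2 h and 0.047 without 24 h, and from 2 to 12 h −0.039 without 6 h. Without 24 h the slopes of RELA and RELB were 0.11 and 0.35. The looser motif was met in 8 windows. The cause of these changes was not tested. Signal over background limits NFKB2 and the dim RELA probe sets, which lie near the median or lower quartile of all probe sets. It also limits REL, whose 2 probe sets had BSA means of 4.54 and 4.31. Each was under the array's median of all probe sets on 2 of 8 arrays.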

Other observations

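Of 5 receptors that feed the non-canonical branch 0 passed by limma. CD40 was 0.36, 0.86, 2.04 and 2.78 higher at 2, 6, 12 and 24 h. Its BSA values at 2, 6 and 12 h (3.21, 3.34 and 3.26) were under their arrays' lower quartiles of all probe sets. From 2 to 12 h its estimate was 1.09, and 0.66 with the mean of its 2 probe sets. TNFRSF12A was 0.49, 0.49 and 0.85 higher at 2, 6 and 12 h and −3.55 at 24 h. Of 9 measured coactivators and repressors of RELA 0 passed, with a median difference from 2 to 12 h of −0.17; CREBBP, an acetyltransferase, was −0.12, −0.47, −0.45 and 0.07, and HDAC3, a deacetylase, was −0.09, −0.45, −0.31 and −0.96. At 24 h these values come from the array with the wide 3′ to 5′ gap.

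The following pathway genes did not pass from 2 to 12 h. TNIP1, a partner of A20, was 2.31 higher, and CYLD, a deubiquitinase, 0.98. With the mean of their 8 and 4 probe sets these were 1.67 and 0.63. The TNIP1 differences at 2, 6, 12 and 24 h were 0.54, 3.22, 3.17 and −0.75. IKBKE, a kinase related to IKBKB, was 0.50, 1.19 and 1.33 higher at 2, 6 and 12 h. TRAF3, which holds NIK in check, was 0.76 higher.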
